A study of Mus musculus with 99 samples.

Results

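The genes described here are 40 imprinted genes of the mouse, listed by symbol, out of the 55341 gene names of the RNA count table. The genes were chosen by symbol for being imprinted, and selected on results of these data as well, among them the higher levels of Meg3, Rian and Mirg in the RING1B-expressing clones without OHT, so the differences of these RNAs and their cluster between the lines, and all line differences without OHT, are given below as descriptions with no p-value. Where a count past the thresholds is printed for them, it is a description too, and nothing is read from it. For each gene the RNA counts in all 16 RNA-seq libraries were used, together with the ChIP-seq peaks that lay within 2.5 kb of any of its annotated start sites. Neighbouring pairs of genes share such windows in 4 cases (Rian with Rtl1, Peg3 with Usp29, Peg10 with Sgce, Nnat with Blcap), which leaves 36 separate groups of windows.

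The cells were mouse embryonic stem cells (ESCs) grown on gelatin in 2i/LIF medium with serum. Parental cells carry a ROSA26::creERT2 allele, lack Ring1a (Ring1) and have floxed Ring1b (Rnf2) alleles, so that 0.5 uM 4-hydroxytamoxifen (OHT) for 72 h removes the remaining RING1 protein. RING1B WT and RING1B I53S are Parental cells that express tagged RING1B from a pCAG transgene, either wild type or with the I53S change that removes its ubiquitin ligase activity. Each of these lines was a selected clone, so a difference between lines cannot be told apart from a difference between clones. Eed fl/fl cells are separate ESCs in which OHT deletes Eed, a core subunit of PRC2. The paper lists 2 Eed fl/fl clones, and the labels do not say which clone gave each library. Every RNA-seq group, given OHT or the ethanol vehicle (-OHT), has 2 libraries, and nothing in the labels says whether these came from separate cultures, so the p-values measure only the spread between such libraries. MTF2 knockout (KO) derivatives of these 3 lines were studied by ChIP-seq only, and most ChIP-seq conditions have 1 library. The PRC2 subunits JARID2 and MTF2 were also mapped after 48 h of OHT, in Parental cells and in both clones. Every other library with OHT was at 72 h.

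Imprinted genes are transcribed mainly from the copy inherited from 1 parent. They lie in clusters, and in most clusters DNA methylation laid down in the egg or the sperm marks a control element, which sets the state of the neighbouring genes through long noncoding RNAs, CTCF or other chromatin factors. Polycomb group proteins are a second repressive system. PRC1, through RING1B or RING1A, ubiquitinates histone H2A (H2AK119ub1), PRC2 methylates histone H3 (H3K27me3), and several imprinted genes are known targets of both in ESCs, on the silent copy, on both copies, or as a mark carried over from the egg. RNA counts that do not separate the parental copies, as here, give only the sum of the pair.

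Total counts per RNA library lay between 6957248 and 12743460. The 12 libraries of the Parental line and its RING1B clones held counts for 23578 to 28032 gene names, and the 4 Eed fl/fl libraries for 43762 to 46757, so the latter had a fit of their own and levels are not compared by a test with those of the other lines. Rnf2 went from 198 and 257 CPM (counts scaled to a common library size) to 144 and 167 CPM with OHT in Parental cells (log2 fold change -0.55, edgeR adjusted p = 0.0346). Counts were made over all its exons, deleted or not, and in the clones the transgene may be counted too. Eed counts in Eed fl/fl cells went from 255 and 173 CPM to 67.1 and 43.7 CPM (log2 fold change -1.95, edgeR adjusted p = 0.0766). The summed level of 8 ESC markers went with OHT in Parental cells from 3729 to 4240 CPM to 1829 to 1912 CPM, while that of 8 trophoblast markers went from 84.6 to 101 CPM to 399 to 417 CPM and that of 7 primitive endoderm markers from 3.09 to 3.5 CPM to 49.0 to 51.7 CPM. In RING1B I53S cells with OHT the 3 sums were 2171 to 2282, 283 to 357 and 39.6 to 41.2 CPM, and in RING1B WT cells with OHT 3640 to 3655, 133 to 168 and 9.26 to 13.3 CPM. The trophoblast sum includes Ascl2, which is also one of the 40 genes (10.5 to 14.8 CPM without and 36.0 to 39.8 CPM with OHT in Parental cells). Its largest parts in Parental cells with OHT were Krt18 (159.5 to 179.3 CPM) and Krt8 (108.4 to 111.4 CPM). Among the ESC markers Klf4 rose in RING1B I53S cells, from 88.5 to 90.7 CPM to 113.8 to 121.8 CPM, while the others fell. The shifts of the 3 sums moved together with the OHT effects described below, and their part in them was not tested. The fibroblast markers Col3a1, Dcn, Lum and Postn had between 0 and 2 counts per group in the 12 line libraries. In the Eed fl/fl groups, without and with OHT, Col3a1 had 57 and 61 and Dcn 43 and 43 counts. Lum had 5 and 6 and Postn 31 and 68 counts there. Thy1 (2.59 to 3.95 CPM) and Fn1 (1044 to 1306 CPM) were instead lower in Eed fl/fl than in Parental cells without OHT (9.40 to 10.5 and 1612 to 1620 CPM). The sum of all 8 was 1080 to 1330 CPM in Eed fl/fl cells without OHT. The sum of all 8 fibroblast markers went with OHT in Parental cells from 1626 to 1632 CPM to 906 to 1069 CPM, most of it Fn1, which is also made by other cells and had a log2 fold change of -0.78, under the fold threshold. Of the 4 tested, Col1a1 (log2 fold change 2.68) and Col1a2 (log2 fold change 5.29) rose.

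The promoter stretches of 5 genes are printed as examples, 4 of genes that rose with OHT in Parental cells and had RING1B and SUZ12 peaks there, and that of Meg3, which had neither. They were picked after the values were seen. They are RefSeq promoters of build GRCm38.p6, read 5′ to 3′ on the gene's strand, cut back so that no annotated exon is included, with every CpG in capitals. The Dlk1 stretch is chr12:109452573-109452822 on the plus strand, that of Dio3 chr12:110278980-110279067 on the plus strand, that of Igf2 chr7:142661306-142661521 on the minus strand, that of Grb10 chr11:12037421-12037670 on the minus strand, and that of Meg3 chr12:109540746-109540995 on the plus strand.
Dlk1: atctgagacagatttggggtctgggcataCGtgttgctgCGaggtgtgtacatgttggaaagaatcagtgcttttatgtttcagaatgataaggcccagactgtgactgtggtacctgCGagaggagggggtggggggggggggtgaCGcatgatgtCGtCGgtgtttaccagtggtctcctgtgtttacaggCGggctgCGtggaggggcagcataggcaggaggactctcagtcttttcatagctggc
Dio3: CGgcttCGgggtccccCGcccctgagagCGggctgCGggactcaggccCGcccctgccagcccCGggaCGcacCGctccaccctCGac
Igf2: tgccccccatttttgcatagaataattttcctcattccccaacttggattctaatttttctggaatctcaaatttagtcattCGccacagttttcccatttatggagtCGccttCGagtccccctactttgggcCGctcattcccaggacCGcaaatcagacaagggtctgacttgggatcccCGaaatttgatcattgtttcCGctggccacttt
Grb10: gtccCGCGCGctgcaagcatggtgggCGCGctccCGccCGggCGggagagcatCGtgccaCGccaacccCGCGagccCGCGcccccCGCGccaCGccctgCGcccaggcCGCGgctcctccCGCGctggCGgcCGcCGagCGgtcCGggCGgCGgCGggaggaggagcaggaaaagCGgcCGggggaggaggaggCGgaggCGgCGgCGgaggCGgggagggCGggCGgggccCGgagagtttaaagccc
Meg3: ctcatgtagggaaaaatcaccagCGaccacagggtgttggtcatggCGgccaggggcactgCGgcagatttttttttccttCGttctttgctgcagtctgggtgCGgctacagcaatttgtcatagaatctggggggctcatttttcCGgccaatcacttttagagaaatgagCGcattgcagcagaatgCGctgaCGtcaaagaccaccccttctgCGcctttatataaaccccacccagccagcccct

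The Dlk1 stretch holds 8 CpGs, that of Dio3 10 in 88 bases, that of Igf2 7, that of Grb10 40 and that of Meg3 10. In Parental cells without OHT, peaks of RING1B and of the PRC2 subunit SUZ12 overlapped the Dlk1, Dio3, Igf2 and Grb10 promoters, and none overlapped that of Meg3. H2AK119ub1 peaks overlapped the same promoters of Dio3 and Igf2 and not those of Dlk1, Grb10 and Meg3. Another Grb10 promoter, further downstream and not printed, did have an H2AK119ub1 peak, with RING1B and SUZ12 peaks as well. These overlaps were taken over the whole promoter of 300 bases and not over the printed stretch. Of the 40 genes, 34 matched a RefSeq promoter, and their most upstream promoters held a median of 15 CpGs in 300 bases, against 7.0 over all 32851 RefSeq promoters. The median was 16.5 for the 16 with a RING1B peak and 13 for the 18 without. Here the peak could lie within 2.5 kb of any start site, so it need not be at the promoter whose CpGs were counted. At Igf2 the most upstream promoter held 2 CpGs and had no RING1B peak over it. The letters TGCCGC or GCGGCA, the core bound by ZFP57 when methylated, were found on either strand in 7 of the 34 promoters (20.6%) and in 11.6% of all promoters. Grb10 differs from Igf2 in these stretches by its CpG-dense sequence, although both carried RING1B.

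Rtl1 is transcribed on the minus strand, and the maternal RNA of the same cluster runs across it on the plus strand and carries microRNAs. RefSeq places 6 hairpins on that strand within Rtl1, with 11 mature microRNAs. A selection of 5 is shown because the counting did not use strand, so their primary transcript and Rtl1 itself share the counts named Rtl1. The seed, bases 2 to 8, is in capitals.
mmu-miR-431-5p: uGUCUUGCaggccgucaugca
mmu-miR-433-3p: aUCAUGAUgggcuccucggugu
mmu-miR-127-3p: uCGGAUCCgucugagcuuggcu
mmu-miR-434-3p: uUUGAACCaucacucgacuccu
mmu-miR-136-5p: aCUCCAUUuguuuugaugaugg
The 11 mature sequences have 11 distinct seeds. Mature microRNAs themselves were not measured in these libraries.

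In Parental cells, 8 of the 39 imprinted genes that could be tested were higher and 1 was lower with OHT, which deletes Ring1b. Calls needed a log2 fold change of 1.5 or more in either direction and an adjusted p under 0.05 by edgeR's quasi-likelihood test. This contrast alone does not tell the deletion apart from other effects of OHT. The genes that rose were Dlk1, Dio3, Igf2, H19, Ascl2, Plagl1, Grb10 and Magel2, and the gene that fell was Zdbf2. This share, 9 of 39, compares with 17% of all 18154 genes tested (15.1% higher and 1.83% lower). The median log2 fold change was 0.741 over the 39 genes and 0.0269 over all genes. Of the 39 genes, 30 were not called. Without the fold threshold 16 were higher and 6 lower, where 34.3% of all genes passed (21.9% higher and 12.4% lower).

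In the Dlk1-Dio3 cluster on chromosome 12, both protein-coding ends rose. Dlk1 (chr12:109452823-109463336, plus strand), a membrane protein of the Notch ligand type that is made from the paternal copy, was at 0.244 and 0.865 CPM in Parental cells without OHT and at 16 and 23.1 CPM with OHT. It was at 0.386 and 0.576 CPM without and 17.3 and 22.5 CPM with OHT in RING1B I53S cells. The values in RING1B WT cells were 0.535 and 0.439 CPM without and 2.82 and 4.11 CPM with OHT. All libraries with OHT thus lay above all those without, with the RING1B WT libraries between the others. The log2 fold change of Dlk1 was 5.24 (SE 0.46, edgeR adjusted p = 1.16e-07) in Parental, 5.36 (SE 0.46, edgeR adjusted p = 2.04e-07) in RING1B I53S and 2.79 (SE 0.52, edgeR adjusted p = 0.00739) in RING1B WT cells. The last call was lost without RING1B WT -OHT replicate 2 (edgeR adjusted p = 0.106) or without RING1B WT +OHT replicate 2 (edgeR adjusted p = 0.0995).

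Dio3 (chr12:110279068-110281097, plus strand), the deiodinase that inactivates thyroid hormone, lies at the far end of the cluster and followed Dlk1. Its level was 0.407 and 0.989 CPM without and 13.1 and 10.7 CPM with OHT in Parental cells. The respective values were 0.850 and 0.767 CPM and 8.93 and 13.9 CPM in RING1B I53S cells, and 0.321 and 0.548 CPM and 1.81 and 3.36 CPM in RING1B WT cells. No library with OHT overlapped a library without. The log2 fold changes were 4.16 (SE 0.48, edgeR adjusted p = 2.66e-06) in Parental, 3.80 (SE 0.46, edgeR adjusted p = 6.75e-06) in RING1B I53S and 2.52 (SE 0.58, edgeR adjusted p = 0.0251) in RING1B WT cells. The call in RING1B WT cells did not hold when either -OHT library or +OHT replicate 2 was left out, with edgeR adjusted p up to 0.300, or when RING1B WT cells were fitted alone (edgeR adjusted p = 0.0652). With OHT, RING1B I53S cells had more Dlk1 (log2 difference 2.53, SE 0.36, edgeR adjusted p = 0.000194) and more Dio3 (log2 difference 2.16, SE 0.41, edgeR adjusted p = 0.00186) than RING1B WT cells. The Dio3 difference was no longer called without RING1B WT +OHT replicate 1 (edgeR adjusted p = 0.0589).

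The maternally expressed noncoding RNAs of the same cluster, Meg3, Rian (a host of small nucleolar RNAs) and Mirg (a host of microRNAs), did not follow Dlk1 and Dio3. Meg3 was at 7.09 and 3.46 CPM in Parental cells without OHT and at 5.21 and 6.34 CPM with OHT (log2 fold change 0.08, SE 0.54, edgeR adjusted p = 0.926). Rian was at 4.07 and 5.19 CPM without and at 6.23 and 7.41 CPM with OHT (log2 fold change 0.57, SE 0.37, edgeR adjusted p = 0.242). Mirg and Rtl1 were near the limit of counting in Parental cells, with 6 and 3 counts per group without OHT, and their OHT effects were not called in any of the lines. For Rtl1 the ratio of counts with to without OHT in Parental cells was 4.02, with an exact 95% counting interval of 1.10 to 22 that covers counting error only.

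**Figure D1:**
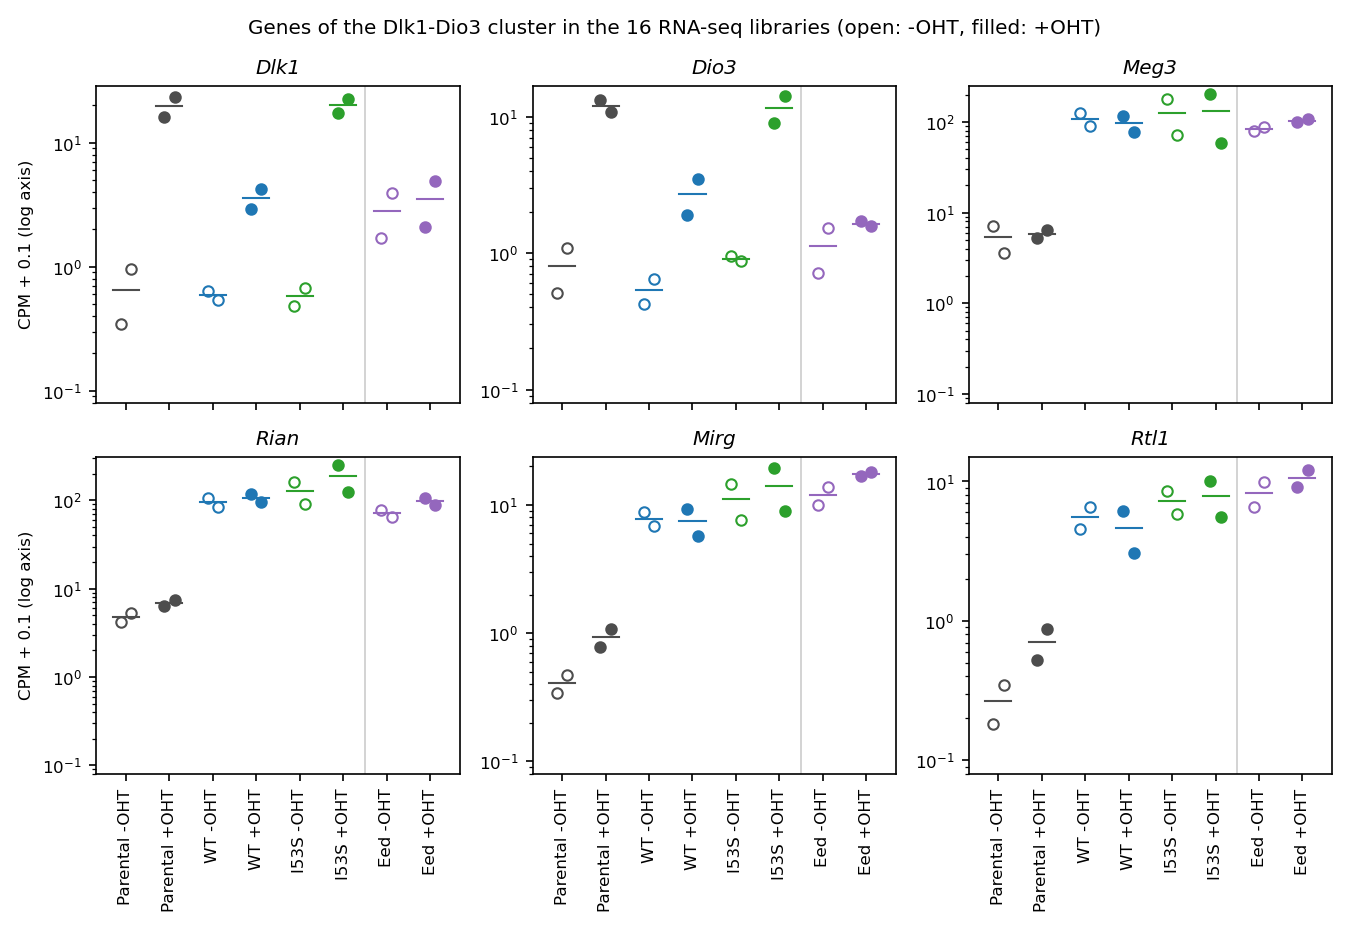
Level of 6 genes of the Dlk1-Dio3 cluster in each of the 16 RNA-seq libraries, as CPM plus 0.1 on a log axis, by line and treatment. Each point is a library, open without and filled with OHT, and each bar the mean of 2 libraries. Dlk1 and Dio3 were higher in all libraries with OHT of the Parental line and its clones, while Meg3, Rian, Mirg and Rtl1 were low in the 4 Parental libraries and high in all others.

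Their levels differed by line. Without OHT, Meg3 (chr12:109541001-109571726, plus strand) was at 126 and 89.5 CPM in RING1B WT and at 180 and 71.6 CPM in RING1B I53S cells, against 7.09 and 3.46 CPM in Parental cells. Rian was at 107 and 83.5 CPM and at 163 and 90.6 CPM in these clones, against 4.07 and 5.19 CPM. Mirg was at 8.66 and 6.80 CPM in RING1B WT and at 14.4 and 7.58 CPM in RING1B I53S cells, against 0.244 and 0.371 CPM. Parental libraries were the lowest for every one of these RNAs, and replicate 1 of RING1B I53S was the highest of the -OHT libraries. The log2 differences from Parental cells without OHT, given as descriptions, were 4.53 for Meg3, 4.79 for Rian and 5.17 for Mirg in RING1B I53S, and 4.30, 4.37 and 4.65 in RING1B WT cells. Rtl1 had 170 counts in RING1B I53S, 101 in RING1B WT and 3 in Parental cells without OHT, ratios to Parental of 49.4 (exact 95% counting interval 16.6 to 242) and 37.1 (12.3 to 183). Between RING1B I53S and Parental cells without OHT, 6 of the 39 genes, those chosen on this difference included, were past the fold and adjusted p thresholds, where 0.154% of all genes were, and 4 between RING1B WT and Parental cells, where 0.0606% were. The 2 further genes in RING1B I53S cells were H19 (log2 difference 3.30) and Peg10 (log2 difference -1.69).

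The libraries with OHT are other libraries of the same clones, and their values are given as descriptions as well. Meg3 was at 118 and 78.5 CPM in RING1B WT and at 204 and 59.0 CPM in RING1B I53S cells, against 5.21 and 6.34 CPM in Parental cells. Again the Parental libraries were the lowest. The log2 difference of Meg3 from Parental cells was 4.51 (SE 0.51) in RING1B I53S and 4.09 (SE 0.51) in RING1B WT cells. It was 4.79 (SE 0.34) and 3.97 (SE 0.33) for Rian, 4.08 (SE 0.49) and 3.17 (SE 0.50) for Mirg, and 3.67 (SE 0.53) and 2.91 (SE 0.55) for Rtl1. In all, 5 of 39 genes were past the thresholds in RING1B I53S against Parental cells with OHT, where 0.16% of all genes were, and the fifth was H19. The comparisons of the clones share their Parental libraries.

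Between RING1B I53S and RING1B WT cells, none of the cluster's noncoding RNAs was called with OHT, and the adjusted p of Rian was 0.0613 by edgeR at a log2 difference of 0.81. Their OHT effects were also not called in either clone, with log2 values between -0.13 and 0.57 for Meg3 and Rian. Of the 120 gene names that start between Begain and Dio3, 85 had a count in any library and 12 were tested. Of these 12, 6 are not in the list of 40, and 3 of the 6 were past the thresholds in a line comparison, the transcripts Gm26945, Gm37899 and B830012L14Rik. With OHT they were higher than in Parental cells by 3.76, 5.11 and 5.01 in RING1B I53S and by 2.51, 4.09 and 3.48 in RING1B WT cells on the log2 scale. These RNAs lay along the middle of the domain, between Dlk1 and Dio3, whose own differences between RING1B I53S and Parental cells were within their error (log2 differences with OHT of 0.03, SE 0.32, and -0.05, SE 0.36).

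At the Igf2-H19 cluster on chromosome 7, Igf2, a fetal growth factor made from the paternal copy, had 1 count in the Parental libraries without OHT and 95 with OHT. That is 0.0815 and 0 CPM against 4.27 and 4.39 CPM, a ratio of 88.1 with an exact 95% counting interval of 15.4 to 3510 (edgeR adjusted p = 6.37e-05). It was at 0.309 and 0 CPM without and 1.91 and 2.93 CPM with OHT in RING1B I53S cells (edgeR adjusted p = 0.00156). It was at 0.321 and 0.110 CPM without and 0.503 and 0.623 CPM with OHT in RING1B WT cells, which was not called (edgeR adjusted p = 0.544). Igf2 shares 62.8% of its exon bases with the annotated gene Gm49394 , so its counts are uncertain where reads fall in the shared part.

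H19, the maternally expressed noncoding RNA next to Igf2, rose as well. It was at 0.326 and 0.989 CPM without and 3.67 and 3.90 CPM with OHT in Parental cells (log2 fold change 2.62, SE 0.61, edgeR adjusted p = 0.00237). This call was lost without Parental -OHT replicate 1 (edgeR adjusted p = 0.0513). In RING1B I53S cells it was already at 7.26 and 4.80 CPM without OHT, above all Parental libraries, and reached 41.7 and 23.3 CPM with OHT (log2 fold change 2.42, SE 0.42, edgeR adjusted p = 0.000281). With OHT the log2 difference of RING1B I53S from RING1B WT cells was 3.18 (SE 0.45), given as a description. These clones differed in H19 without OHT as well (log2 difference 2.09, not past the thresholds by edgeR). From Parental cells with OHT, the log2 difference of RING1B I53S cells was 3.10 (SE 0.44), also given as a description. These lines too differed in H19 without OHT (log2 difference 3.30). The difference from Parental cells with OHT was no longer past the thresholds without RING1B I53S +OHT replicate 1 or either Parental library with OHT (log2 differences 2.63 to 3.14). RING1B WT cells, at 1.81 and 5.48 CPM with OHT, overlapped Parental cells. Among the 39 genes, H19 was the only one past the thresholds with OHT in RING1B I53S cells against both Parental and RING1B WT cells. Both comparisons are descriptions.

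Of the Kcnq1 cluster 6 members were tested, and Ascl2 (chr7:142966829-142969264, minus strand), a transcription factor of the trophoblast lineage, was the member called by OHT. It was at 14.8 and 10.5 CPM without and 39.8 and 36.0 CPM with OHT in Parental cells (log2 fold change 1.57, SE 0.30, edgeR adjusted p = 0.000436). Its levels were 10.7 and 7.39 CPM without and 19.7 and 38.7 CPM with OHT in RING1B I53S cells (log2 fold change 1.69, SE 0.30, edgeR adjusted p = 0.000365). It was at 9.95 and 7.79 CPM without and 11.9 and 13.7 CPM with OHT in RING1B WT cells (edgeR adjusted p = 0.438). Both calls lie close to the fold threshold. The first was lost without Parental -OHT replicate 2 or +OHT replicate 1, with log2 values down to 1.32, and the second without replicate 2 of either RING1B I53S treatment, with log2 values down to 1.10. Phlda2, which restrains placental growth, and Slc22a18, a membrane transporter, passed the adjusted p but not the fold in Parental (log2 0.74 and 0.93) and RING1B I53S cells (log2 0.87 and 0.78). Kcnq1ot1, the antisense RNA that silences the cluster in cis, was at 59.4 and 57.2 CPM without and 41.2 and 27.4 CPM with OHT in Parental cells (log2 fold change -0.76, edgeR adjusted p = 0.121). Kcnq1, a potassium channel subunit, had between 0 and 43 counts per line library. With OHT it was lower in RING1B WT than in Parental cells (log2 difference -2.43, edgeR adjusted p = 0.0493), a call that DESeq2 did not make (adjusted p = 0.0770) and that remained in 4 of the 12 fits that leave out a library.

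Grb10, an adaptor protein that dampens insulin and IGF signalling, rose in Parental cells from 8.47 and 15.2 CPM to 39.97 and 63.1 CPM (log2 fold change 2.14, SE 0.37, edgeR adjusted p = 0.000204). It went from 9.81 and 14.1 CPM to 36.5 and 65.0 CPM in RING1B I53S cells (log2 fold change 2.09, SE 0.37, edgeR adjusted p = 0.000316). In RING1B WT cells the libraries with OHT, at 19.5 and 40.4 CPM, overlapped those without, at 16 and 26.2 CPM (edgeR adjusted p = 0.543). Plagl1, a zinc finger transcription factor, rose in Parental cells from 48.3 and 55.0 CPM to 158 and 171 CPM (log2 fold change 1.67, SE 0.19, edgeR adjusted p = 1.73e-06). In RING1B I53S cells it went from 67.9 and 76.1 CPM to 129 and 137 CPM, a log2 change of 0.88 that passed the adjusted p (edgeR, 0.00127) but not the fold. In RING1B WT cells it was at 56.0 and 67.7 CPM without and 63.8 and 75.3 CPM with OHT. The OHT effect on Plagl1 was smaller in RING1B WT than in Parental cells by 1.5 on the log2 scale (SE 0.26, edgeR adjusted p = 0.00374), the only member called for that difference, against 1.54% of all genes. This call was lost without Parental -OHT replicate 1, Parental +OHT replicate 2, RING1B WT -OHT replicate 2 or RING1B WT +OHT replicate 1, at log2 values up to -1.33.

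Zdbf2 (chr1:63273265-63314576, plus strand), a zinc finger gene, was the member that fell. It went from 91.2 and 74.4 CPM to 22.7 and 18.7 CPM with OHT in Parental cells (log2 fold change -2.00, SE 0.25, edgeR adjusted p = 6.18e-06). It fell from 122 and 109 CPM to 45.6 and 24.9 CPM in RING1B I53S cells (log2 fold change -1.71, SE 0.24, edgeR adjusted p = 3.94e-05), a call lost without RING1B I53S +OHT replicate 2 (log2 fold change -1.35). It was at 139 and 153 CPM without and 97.0 and 71.9 CPM with OHT in RING1B WT cells (log2 fold change -0.79, edgeR adjusted p = 0.0884). With OHT, Zdbf2 in RING1B WT cells exceeded that in Parental cells by 2.03 on the log2 scale (SE 0.25, edgeR adjusted p = 2.62e-05).

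**Figure D2:**
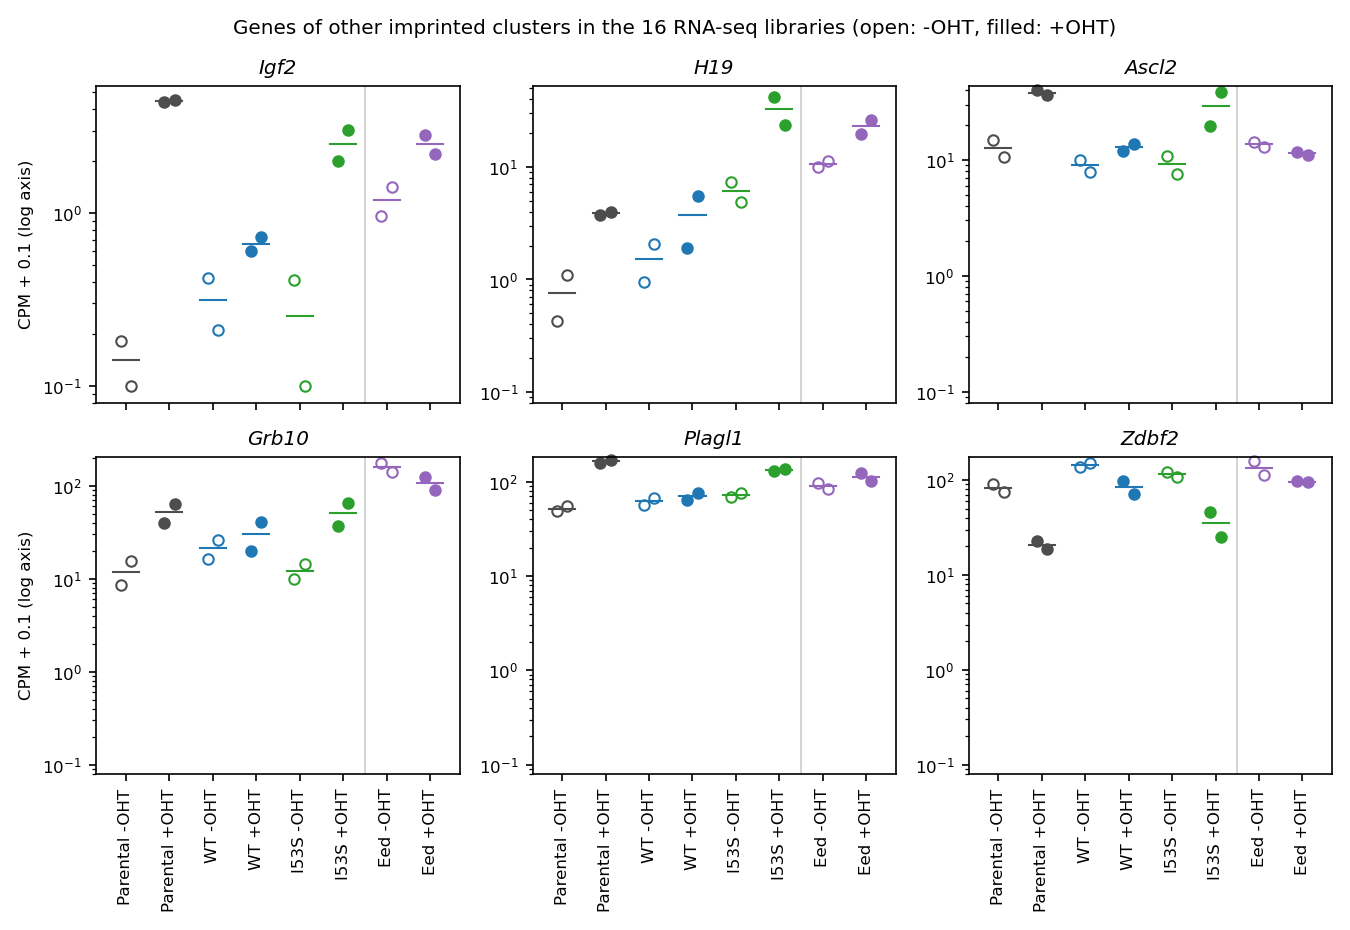
Level of Igf2, H19, Ascl2, Grb10, Plagl1 and Zdbf2 in each of the 16 RNA-seq libraries, as CPM plus 0.1 on a log axis, by line and treatment. Each point is a library, open without and filled with OHT, and each bar the mean of 2 libraries. Igf2, Ascl2, Grb10 and Plagl1 were higher and Zdbf2 lower in the Parental and RING1B I53S libraries with OHT, and the RING1B WT libraries with OHT lay nearer to those without. Outside the Eed fl/fl libraries, H19 was highest in RING1B I53S with OHT.

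In the Snrpn-Ndn cluster, Magel2, an intronless gene of the MAGE family, rose in Parental cells from 1.55 and 1.98 CPM to 7.17 and 9.65 CPM (log2 fold change 2.26, SE 0.43, edgeR adjusted p = 0.000411). Its MAGE relative Ndn went from 18.1 and 24.6 CPM to 47.9 and 52.4 CPM, a log2 change of 1.24 (edgeR adjusted p = 0.000150) under the fold threshold. In the same cluster Snrpn, which encodes a splicing protein, went the other way, from 226 and 180 CPM to 97.8 and 86.2 CPM (log2 fold change -1.14, edgeR adjusted p = 9.94e-05). Mkrn3, a makorin family ubiquitin ligase gene, went from 14 and 12.9 CPM to 5.38 and 7.99 CPM (log2 fold change -1.01, edgeR adjusted p = 0.0101). Ube3a, a ubiquitin ligase gene, was at 92.6 and 85.5 CPM without and 71.2 and 63.6 CPM with OHT (edgeR adjusted p = 0.160). Neighbours in this cluster thus moved in opposite directions, and Snrpn and Mkrn3 remained under the fold threshold. Of the further members below that threshold in Parental cells, Impact (log2 -1.11), Zrsr1 (log2 -0.86) and Jade1 (log2 -0.65) had adjusted p under 0.05 for a decrease.

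In RING1B I53S cells with OHT, 11 of 39 genes were called, 10 higher and 1 lower, where 13.8% of all genes were called (12.8% higher and 1.04% lower). Among them were 7 of the 9 genes called in Parental cells (Dlk1, Dio3, Igf2, H19, Ascl2, Grb10 and Zdbf2). The 4 others were Peg10, a retrotransposon-derived gene needed in the placenta, its neighbour Sgce, a sarcoglycan gene, Sfmbt2, which encodes a Polycomb group protein, and Nap1l5, of the nucleosome assembly protein family. Sgce went from 12.9 and 13 CPM to 40.4 and 41.2 CPM (log2 fold change 1.65, SE 0.22, edgeR adjusted p = 1.70e-05). Sfmbt2 went from 34.7 and 26.2 CPM to 115 and 82.1 CPM (log2 fold change 1.69, SE 0.24, edgeR adjusted p = 3.63e-05), and was under the fold threshold without RING1B I53S -OHT replicate 2 or +OHT replicate 1. Nap1l5 went from 0.618 and 0.767 CPM to 3.01 and 2.5 CPM (log2 fold change 1.98, SE 0.56, edgeR adjusted p = 0.0125) and was not called without either library without OHT. Peg10 went from 31.4 and 18.2 CPM to 72.5 and 69.4 CPM (log2 fold change 1.51, SE 0.29, edgeR adjusted p = 0.000768) and stayed above the fold threshold in 4 of the 12 fits that leave out a library, with log2 values down to 1.16, and not with the replicate block (log2 1.48). In Parental cells these 4 genes had log2 fold changes of 1.07 for Peg10, 1.29 for Sgce, 1.35 for Sfmbt2 and 1.56 for Nap1l5. No member, and none of the 18154 genes, had an OHT effect that differed between RING1B I53S and Parental cells at an adjusted p under 0.05 by edgeR or, for the members, by DESeq2, and 2 of the 39 had an unadjusted p under 0.05 by edgeR.

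In RING1B WT cells 2 of 39 genes were called with OHT, Dlk1 and Dio3, where 1.38% of all genes were. The median log2 fold change was 0.0248 over the 39 genes and 0.0219 over all genes. Sgce passed the adjusted p without the fold (log2 fold change 1.25, edgeR adjusted p = 0.00463). With OHT, 12 genes were past the thresholds between RING1B WT and Parental cells, 5 higher and 7 lower, where 8.68% of all genes were (1.06% higher and 7.62% lower). The counts in all and of higher genes include the RNAs chosen on their line difference, so they are not read against these shares. Lower in RING1B WT were Dlk1 (log2 difference -2.5), Dio3 (-2.22), Igf2 (-2.93), Ascl2 (-1.57), Peg10 (-1.51), Gnas (-1.59) and Kcnq1 (-2.43). Higher were Zdbf2 and, as descriptions, Meg3, Rian, Mirg and Rtl1 of the cluster whose line difference was known beforehand. Of the lower genes, Igf2 was lost without RING1B WT +OHT replicate 1, Gnas without Parental +OHT replicate 1 or RING1B WT +OHT replicate 2, Ascl2 without replicate 1 of either line with OHT, and Peg10 in 5 of the 12 fits that leave out a library and with the replicate block (log2 -1.49). Between RING1B I53S and RING1B WT cells with OHT, Dlk1, Dio3 and, as a description, H19 were past the thresholds, 3 of 39, where 6.62% of all genes were. Without OHT, as a description, 0 of 39 were past the thresholds between these clones by edgeR, where 0.0441% of all genes were, and 1 (H19) by DESeq2, with 8 at an unadjusted p under 0.05 by edgeR. Without the fold threshold the shares of all genes were 26.7% for OHT in RING1B I53S cells, 18.1% and 13.3% for RING1B WT against Parental and RING1B I53S against RING1B WT with OHT, and 2.07% for the difference in OHT effect of RING1B WT from Parental cells.

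**Figure D3:**
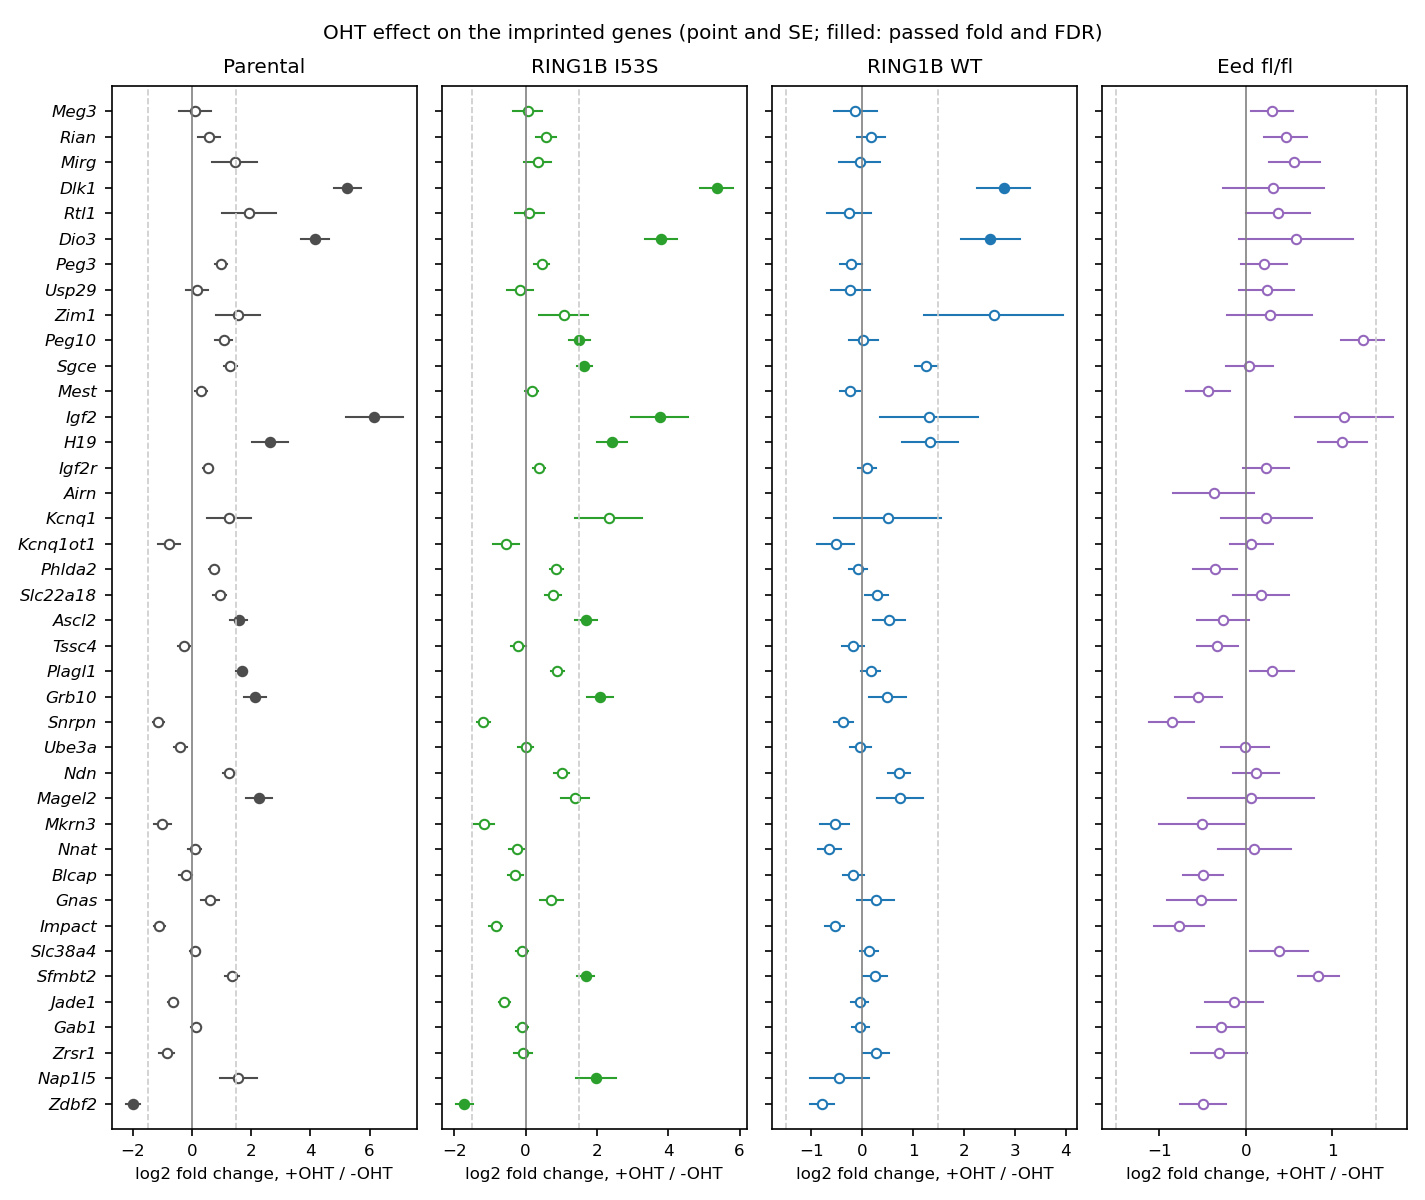
OHT effect on each of the 40 genes, as log2 fold change with bars of 1 standard error, in Parental, RING1B I53S, RING1B WT and Eed fl/fl cells. Filled points passed the fold and adjusted p thresholds, open points did not, dashed lines mark log2 changes of 1.5, and the horizontal scales differ between panels. The 9 filled points in Parental and 11 in RING1B I53S cells are mostly to the right, with Zdbf2 to the left, and there are 2 in RING1B WT and 0 in Eed fl/fl cells.

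In Eed fl/fl cells none of the 39 genes tested was called by edgeR or DESeq2 with OHT, where 0.00795% of all 25170 genes were by edgeR, and 5 had an unadjusted p under 0.05 by edgeR. With the replicate number as a block, 161 of all genes (0.64%) were called in place of 2, and still 0 of the 39, although 11 of the 39 then had an edgeR adjusted p under 0.05 at folds under the threshold, where 10.7% of all genes had such a p at any fold. Among these 11 were Peg10, H19, Impact and Snrpn. H19 was at 9.87 and 11.2 CPM without and 19.4 and 26.4 CPM with OHT (log2 fold change 1.12, SE 0.29, edgeR adjusted p = 0.480). Peg10 was at 43.1 and 52.1 CPM without and 118.5 and 124 CPM with OHT (log2 fold change 1.35, SE 0.25, edgeR adjusted p = 0.153). Dlk1, at 1.60 and 3.83 CPM without and 1.99 and 4.79 CPM with OHT, and Dio3, at 0.617 and 1.43 CPM without and 1.62 and 1.47 CPM with OHT, were not called (log2 fold changes 0.32, SE 0.58, and 0.58, SE 0.66). The 4 Eed fl/fl libraries held Meg3 at 78.7 to 107 CPM and Rian at 64.2 to 107 CPM, in the range of the RING1B clones and not of the Parental cells. Grb10 was at 90.6 to 174 CPM, above its 8.47 to 65.0 CPM in the 12 line libraries. Some of the fibroblast markers given above were higher and others lower in these libraries than in Parental cells without OHT. Their part in these levels was not tested.

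Airn, the antisense RNA that silences Igf2r, was the gene not tested in the line libraries. It had 0 counts in Parental and RING1B WT cells without OHT, 13 in Parental and 1 in RING1B WT cells with OHT, and 6 without and 23 with OHT in RING1B I53S cells. With a floor of 3 counts per group in place of 0, the Parental level with OHT was 4.02-fold that without, a value that leaves out counting error. Igf2r itself, the receptor that clears IGF2, was at 112 and 111 CPM without and 159 and 163 CPM with OHT in Parental cells (log2 fold change 0.53, edgeR adjusted p = 0.0239), under the fold threshold. Nap1l5 was not tested in Eed fl/fl cells, where it had 12 counts without and 17 with OHT. Across the 12 line libraries the amino acid transporter Slc38a4 was at 355 to 527 CPM, the adaptor Gab1 at 252 to 329 CPM and Tssc4 at 40.5 to 63.6 CPM, and none of them was called in any comparison by edgeR. Per kilobase of exon, the highest mean levels in Parental cells without OHT were 122 CPM per kb for Phlda2, 108 for Slc38a4 and 94.0 for Snrpn, against 0.0981 for Dlk1 and 0.00712 for Igf2.

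Of 50 further imprinted genes, 39 were tested in the line libraries, and 13 rose and 2 fell with OHT in Parental cells, where 15.1% of all genes rose and 1.83% fell. Among them were Cdkn1c, a cyclin-dependent kinase inhibitor of the Kcnq1 cluster (log2 fold change 4.03, edgeR adjusted p = 2.03e-07), Rasgrf1, an exchange factor for RAS (log2 7.31, edgeR adjusted p = 3.33e-07), Gatm, an enzyme of creatine synthesis (log2 3.39, edgeR adjusted p = 4.03e-07), and Peg12 (log2 2.14, edgeR adjusted p = 3.76e-05). Those that fell were Snhg14 (log2 -1.63) and Cobl (log2 -1.5). In RING1B I53S cells 11 rose and 0 fell (12.8% and 1.04% of all genes), in RING1B WT cells Gatm and Osbpl5 rose (1.38% of all genes were called), and in Eed fl/fl cells 0 of 46 were called by edgeR, with 2 at an unadjusted p under 0.05. Of 16 genes for keeping imprints or for DNA methylation, 15 were tested. With OHT in Parental cells Dppa3, which protects maternal imprints in the zygote, rose (log2 1.57, edgeR adjusted p = 2.97e-06), while Tet2, a methylcytosine oxidase (log2 -1.94, edgeR adjusted p = 6.59e-07), and Zfp42, which is also an ESC marker (log2 -2.03, edgeR adjusted p = 7.02e-07), fell. Between the lines without OHT, none of these 15 was called by edgeR, and the number with an unadjusted p under 0.05 was 0 for RING1B I53S and 1 for RING1B WT against Parental cells.

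ChIP-seq peaks of RING1B lay at 19 of the 40 genes in Parental cells without OHT (47.5%), where 19.8% of the 18154 genes with RNA tested had such a peak. They covered Dlk1, Dio3, Igf2, Ascl2, Grb10, Plagl1, Magel2 and Zdbf2, that is all genes called with OHT in Parental cells except H19. Scores are the authors' -log10 p of the strongest peak at a gene. The RING1B score was 171 at Igf2, 155 at Ascl2, 129 at Dio3, 113 at Gnas, 103 at Dlk1 and 82.7 at Grb10. With OHT, RING1B peaks lay at 0 of the 40 genes in Parental cells (1.72% of genes tested), at 15 in RING1B WT cells (14.8%) and at 3 in RING1B I53S cells (3.29%), namely Igf2, Ascl2 and Grb10 with scores of 12.6, 13.4 and 26.6. Each condition is 1 library, peak lists hold no depth, and scores move with depth, so scores are set side by side with no test.

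Of the 19 genes with a RING1B peak, 7 rose and 1 fell with OHT in Parental cells. Of the 20 tested without one, H19 rose. Over all genes the shares that rose were 46.3% of those with a peak and 7.44% of those without, against 36.8% and 5.0% of the imprinted genes. Meg3, Rian, Mirg, Rtl1 and, in RING1B I53S, H19 were higher in a RING1B clone than in Parental cells. None of them had a peak in any library of the RING1B antibody. Zdbf2, higher in RING1B WT cells with OHT, had one in Parental cells without OHT. RING1B was not mapped in the clones without OHT, where ChIP-seq covered JARID2 and MTF2 only. Meg3, Rian, Rtl1, Snrpn, Tssc4, Impact and Slc38a4 had no peak in any of the 69 antibody libraries. Mirg had peaks in 2 of them, JARID2 (score 10.4) and MTF2 (14.4) of Parental cells without OHT, both near the lowest score of 10.0 in the lists. H19 also had peaks in 2, JARID2 (21) and MTF2 (29.7) of RING1B I53S cells without OHT, the only antibodies used in that condition. Without OHT its RNA was higher there than in Parental and RING1B WT cells, and lower than in Eed fl/fl cells. At the other end Grb10 had a peak in 63 of the 69 libraries, Igf2 in 57, Gnas in 56, Dio3 and Ascl2 in 52 each, Sfmbt2 in 48 and Dlk1 in 47.

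**Figure D4:**
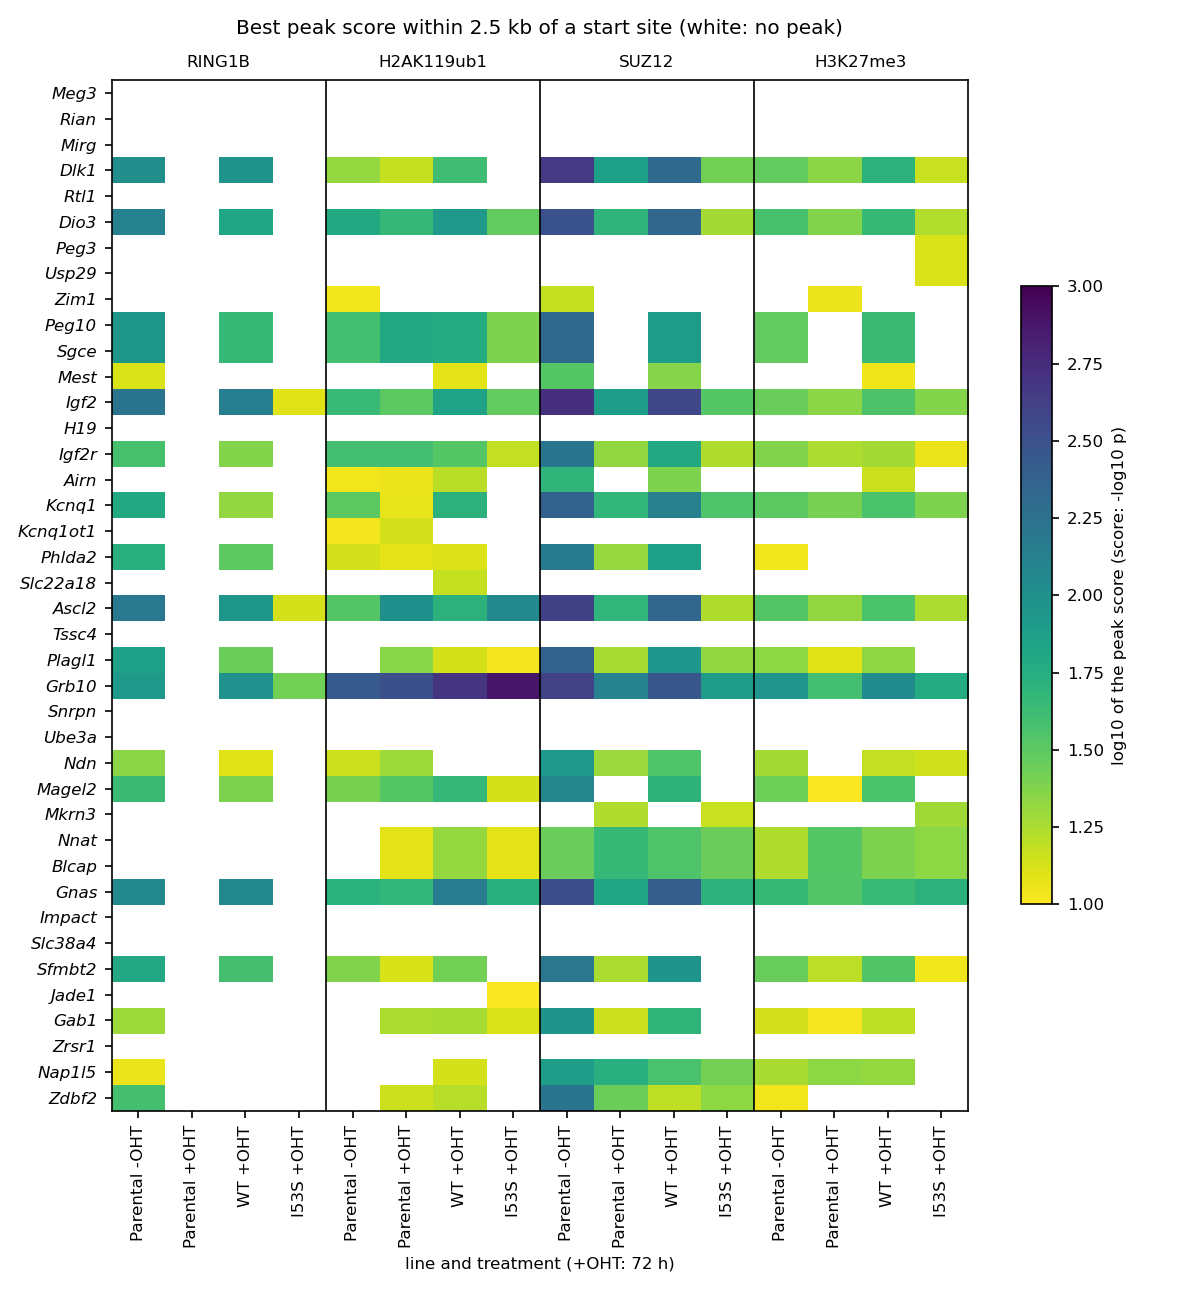
Score (-log10 p) of the strongest peak within 2.5 kb of a start site of each gene, by library, with colour for the log10 of the score, for RING1B, H2AK119ub1, SUZ12 and H3K27me3, with blank cells where no peak was listed. Peaks were concentrated at the same rows (Grb10, Igf2, Dio3, Dlk1, Ascl2 and Gnas), and the rows of Meg3, Rian, Mirg, Rtl1 and H19 are blank.

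H2AK119ub1 peaks lay at 17 genes in Parental cells without OHT (42.5%, against 25.9% of genes tested). With OHT they lay at 21 in Parental (24.2% of genes tested), 22 in RING1B WT (31.1%) and 14 in RING1B I53S cells (13.4%). Peaks at the imprinted genes were listed in the libraries labelled Parental +OHT and RING1B I53S +OHT too, although the total number of peaks was 5450 and 3120 there against 12648 in Parental cells without OHT. At a score of at least 20 the count was 12 in Parental cells without OHT, and with OHT the counts were 10 in Parental, 14 in RING1B WT and 7 in RING1B I53S cells. Grb10 had the highest H2AK119ub1 score in all 4 libraries, 274 in Parental cells without OHT and 324, 500 and 777 with OHT in the Parental, WT and I53S lines. Ascl2 scored 34.2 without OHT and 99.8, 52.2 and 110 in the same order. Dio3 scored 60.5, 46.5, 83.5 and 30.3, and Dlk1 20.6, 15 and 40.8 with no peak in RING1B I53S cells. Grb10 and Ascl2 thus had higher peak scores with OHT than without in Parental and RING1B I53S cells, unlike Dlk1 and Dio3. These scores come from single libraries without the spike-in and do not give the level of the mark. The paper, which scaled its H2AK119ub1 data by a spike-in, reports that the mark was lost completely from PRC1 targets in RING1B I53S cells with OHT.

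SUZ12 peaks lay at 23 genes in Parental cells without OHT (32.1% of genes tested), and with OHT at 18 in Parental (23.6%), 22 in RING1B WT (26.4%) and 14 in RING1B I53S cells (14.2%). H3K27me3 peaks lay at 20 (28.7%), 16 (22.5%), 20 (27.9%) and 15 genes (18.2%) in the same order. SUZ12 scores at Dlk1 were 465 in Parental cells without OHT and 73.6, 205 and 26.7 with OHT in the Parental, WT and I53S lines. At Igf2 they were 524, 77.6, 375 and 33.4, and at Grb10 410, 130, 291 and 78.2. In each case the order was the same, with RING1B I53S lowest. In the MTF2 KO derivatives SUZ12 peaks lay at 12 genes in Parental cells without OHT (11.6% of genes tested) and with OHT at 3 in Parental (4.89%), 12 in RING1B WT (13.2%) and 1 in RING1B I53S cells (1.52%). The gene that kept SUZ12 and H3K27me3 peaks in RING1B I53S MTF2 KO cells with OHT was Grb10, with scores of 21.4 and 45.0. H3K27me3 peaks in these derivatives lay at 9, 2, 10 and 1 genes (11.9%, 0.617%, 7.43% and 2.43% of genes tested).

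The accessory subunits of PRC2 followed different patterns. JARID2, of the PRC2.2 form, had peaks at 26 genes in Parental cells without OHT (34.8% of genes tested), at 8 after 48 h (11.2%) and 3 after 72 h of OHT (4.97%). RING1B I53S cells had JARID2 peaks at 22 genes without OHT (21.2%) and with OHT at 5 after 48 h (3.94%) and at 5 and 2 in the pair of 72 h libraries (3.93% and 1.47%). In RING1B WT cells it was at 21 genes without OHT (23.4%), 19 after 48 h (19.5%) and 21 and 18 after 72 h (20.0% and 19.7%). At Igf2 the JARID2 score was 697 in RING1B I53S cells without OHT and 28.7 after 48 h, with 25.3 and no peak in the 72 h libraries, while in RING1B WT cells it was 745, 445, and 559 and 487. MTF2, of the PRC2.1 form, had peaks at 26 genes in Parental cells without OHT (58.5%), 23 after 48 h (32.2%) and 19 after 72 h (27.9%). In RING1B I53S cells it was at 24 genes without OHT (37.1%), 24 after 48 h (33.5%), and 15 and 24 in the 72 h libraries (12.6% and 28.7%). MTF2 peaks were thus listed at more of these genes than JARID2 peaks in every RING1B I53S library with OHT, and the pair of MTF2 libraries at 72 h differed by 9 genes.

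Among the PRC1 subunits, CBX7 and PCGF2 of canonical PRC1 each had peaks at 20 genes in Parental cells without OHT (19% of genes tested for either). With OHT, CBX7 peaks lay at 0 genes in Parental (0.215%), 14 in RING1B WT (9.88%) and 0 in RING1B I53S cells (0.0771%). PCGF2 peaks lay at 0 (0.38%), 15 (13.9%) and 4 genes (2.47%), the 4 being Igf2, Grb10, Gnas and Sfmbt2 with scores of 34.8, 36.2, 20.2 and 12. PCGF6 of variant PRC1 was at 15 genes without OHT (31.6%) and with OHT at 15 in Parental (22.2%), 18 in RING1B WT (29.7%) and 8 in RING1B I53S cells (11.2%). RYBP, a subunit shared by variant PRC1 forms, was at 12 genes in Parental cells without OHT (13.5%), 9 in RING1B WT (5.26%) and 5 in RING1B I53S cells with OHT (3.65%). EPOP peaks lay at 21 genes in Parental cells without OHT (26.1%) and with OHT at 13 (11%), 21 (26.2%) and 11 (12.2%) in Parental, RING1B WT and RING1B I53S cells. AEBP2 peaks lay at 7 genes in Parental cells without OHT (4.44%) and at 0, 7 and 0 with OHT (0.022%, 4.76% and 0.0386%). None of the 4 input peak lists held a peak at any of the 40 genes.

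**Figure D5:**
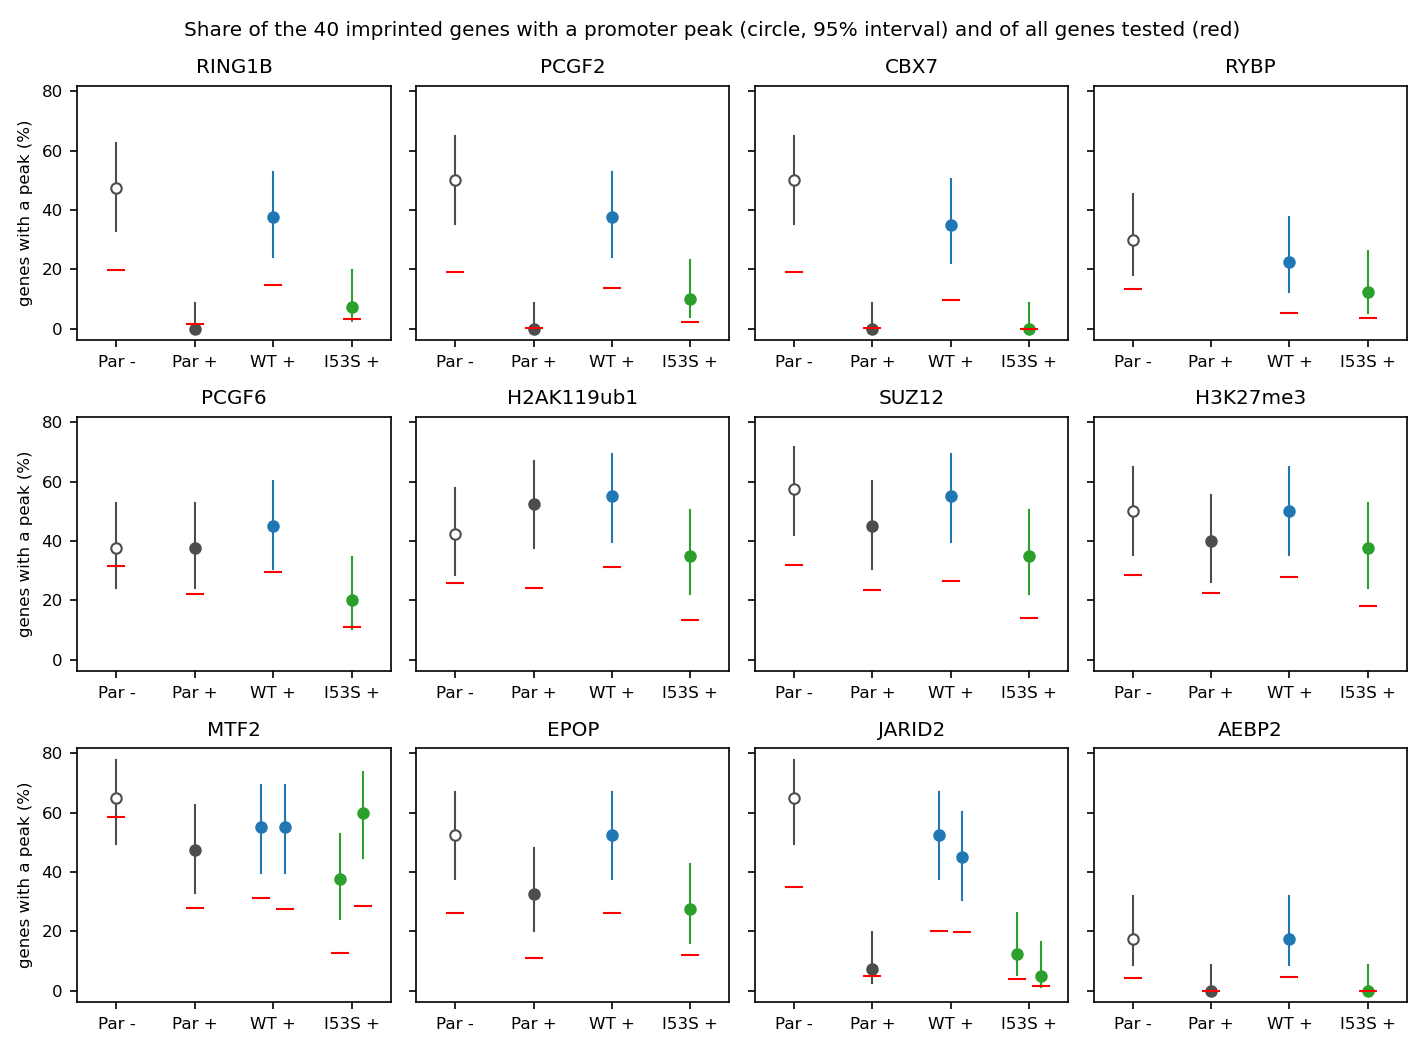
Share of the 40 genes with a peak within 2.5 kb of a start site, in percent, by antibody and library, as circles (open without, filled with 72 h of OHT) with 95% Wilson intervals that cover counting error only, and a red dash for the share of the 18154 genes with RNA tested. The RING1B share was 47.5% in Parental cells without OHT and 0%, 37.5% and 7.5% with OHT in the Parental, WT and I53S lines, and the circles stood above the dash except where the share was 0%.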

How the data were processed

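RNA-seq counts per gene name were deposited by the authors as raw whole numbers. Per the labels and methods they aligned poly-A SMART-seq2 reads with STAR 2.7 to mm10 and counted them with featureCounts over GENCODE exons without using strand, so reads of overlapping or antisense genes cannot be told apart. Of the deposited count table all 16 columns were mapped to samples. The authors deposited 74 ChIP-seq peak lists whose score is −log10 of the MACS2 2.1.1 p-value, called per library after alignment with Bowtie 1.2.2. The lowest score was 10.0, and the lists give no depth, so shares and scores were compared with no test. The study's spike-in was not used here. The 7 deposited comparison tables hold the authors' fold changes and p-values and were not used.

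The 40 genes and all further gene lists were chosen with earlier results of these data known. Every listed gene was examined, full statistics are given for those called in a comparison or at 0 counts, and the others are given by ranges and counts. From the further lists only genes that were called are named, as examples, and not every called gene is named.

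The 12 libraries of the lines were fitted together and the 4 Eed fl/fl libraries apart with edgeR 4.0.16 in R 4.3.3 (filterByExpr, TMM, quasi-likelihood test, two-sided), and 12 contrasts were tested. Adjusted p-values are Benjamini-Hochberg values over all genes tested, and a call needed a log2 fold change of 1.5 or more in either direction with an adjusted p under 0.05. CPM use TMM-scaled library sizes. Ratios involving 1 to 3 counts have exact binomial intervals, and a floor of 3 counts per group stands in for 0. The biological coefficient of variation was 0.181 in the lines and 0.251 in Eed fl/fl cells. Scripts were tested on simulated data. Alternatives were DESeq2 1.42.0, other size factors, no filter, at least 10 counts in every library, a replicate block, only the groups compared, no fold threshold, each library left out, and for peaks a score of at least 20, windows of 1 and 5 kb and the 5′ end of the gene model only.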

Additional observations from a re-analysis of the deposited data

Results flagged for a closer look

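The OHT effect on Plagl1 was smaller in RING1B WT than in Parental cells, with a log2 difference of -1.504 (SE 0.26, edgeR adjusted p = 0.00374), and it was higher with OHT in both Parental libraries. The OHT effect on Peg3, a zinc finger gene, also differed between these lines, with a log2 difference of -1.19 (SE 0.30, edgeR adjusted p = 0.0405) that is under the fold threshold, so it was not called. Peg3 was at 71.7 and 72.1 CPM without and 146 and 136 CPM with OHT in Parental cells, and at 102 and 97.5 CPM without and 87.5 and 83.8 CPM with OHT in RING1B WT cells, so that the libraries moved in opposite directions. A RYBP ChIP-seq library that the labels put in no group held 61 peaks, and 1 of them, with a score of 18.8, lay at Grb10, where the input lists had none.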

How the results depend on the processing

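Of the results for single genes, 0 of 8457 reversed under an alternative, 61 were no longer past the threshold and 80 passed it anew. Without the fold threshold, the numbers of imprinted genes called were 22 for OHT in Parental, 20 in RING1B I53S, 24 for RING1B WT against Parental with OHT, 12 for RING1B I53S against RING1B WT with OHT and 2 for the difference of the OHT effect in RING1B WT. With at least 10 counts in every library, which removes the low genes and leaves fewer to test, they were 5 for OHT in Parental, 6 in RING1B I53S and 0 in RING1B WT, where 7.8%, 5.57% and 0.642% of all genes were called. For RING1B I53S and RING1B WT against Parental they were then 3 and 2 without OHT and 2 and 7 with OHT, and 0 for RING1B I53S against RING1B WT with OHT (0.139%, 0.0541%, 0.0851%, 2.97% and 2.38% of all genes). With no filter they were 1 and 6 for RING1B I53S against RING1B WT without and with OHT and 2 for the difference in RING1B WT. DESeq2 called 1 gene, H19, for RING1B I53S against RING1B WT without OHT. With only the groups compared, 1 gene was called for OHT in RING1B WT. With the replicate block, 2 genes were called for the difference in RING1B WT, Plagl1 and Grb10, 11 for RING1B WT against Parental with OHT and 4 for RING1B I53S against RING1B WT with OHT, and the other counts did not change, although for OHT in RING1B I53S Kcnq1 was called in place of Peg10, and in Eed fl/fl 161 of all genes were called in place of 2. The block lost Peg10 for RING1B WT against Parental with OHT and gained Igf2 for RING1B I53S against RING1B WT with OHT. With 2 pairs per comparison the numbers could not be shown to pair the libraries, whose deviations correlated at 0.0627 to 0.301 in the lines and 0.459 in Eed fl/fl cells. With a library left out, the counts were 8 to 10 for OHT in Parental, 7 to 12 in RING1B I53S, 0 to 2 in RING1B WT and 0 in Eed fl/fl. For RING1B I53S against Parental they were 5 to 6 without and 3 to 6 with OHT, for RING1B WT against Parental 3 to 4 and 8 to 12, and for RING1B I53S against RING1B WT 0 and 2 to 5. The difference in RING1B WT then gave 0 to 1 and that in RING1B I53S 0. With peak scores of at least 20, the genes with H2AK119ub1 peaks were 12 in Parental without OHT, and 10 in Parental, 7 in RING1B I53S and 14 in RING1B WT with OHT. Those with H3K27me3 were 10 in Parental with and 13 without OHT, 6 in RING1B I53S with OHT, 1 in Parental MTF2 KO without and 2 in RING1B WT MTF2 KO with OHT. RING1B remained at 1 gene in RING1B I53S with OHT, and SUZ12 at 1 in Parental MTF2 KO with and 6 without OHT. With the 5′ end of the gene model only, SUZ12 was at 0 genes in RING1B I53S MTF2 KO with OHT. Except where shown by construction, the cause was not tested. Peak lists limit all statements on levels of a mark, and genes under about 10 counts were limited by depth.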
